A study of Mus musculus with 17 samples.

Results

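Cytosolic ribosomal protein genes were followed in RNA sequencing of the mouse cochlea after noise exposure (NE), with and without brimonidine. Members were the protein-coding genes whose symbol began with Rpl or Rps and a digit, together with Rpsa, Rplp0, Rplp1 and Rplp2, and 10 kinase genes with names of the Rps6k kind were left out. The rule gave 94 of the 35285 genes in the table. Of these, 43 encode proteins of the large subunit, 31 encode proteins of the small subunit and 3 encode the P stalk, and these 77 are called core genes here. The remaining members were 7 paralogs (Rpl3l, Rpl7l1, Rpl22l1, Rpl36al, Rpl39l, Rps27l and Rps27rt), 9 copies annotated as protein coding under a pseudogene-type symbol, and Rps19bp1, which encodes a nucleolar protein that binds Rps19 and is no ribosomal protein. The members lay on 20 chromosomes, 14 of them on chromosome 7 and 4 on the X chromosome.

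A cytosolic ribosome has a small subunit, which decodes the messenger RNA, and a large subunit, which joins the amino acids, and each is built from ribosomal RNA and ribosomal proteins. Most ribosomal protein messenger RNAs belong to the TOP class, which begins with a C and a run of pyrimidines (the 5′ terminal oligopyrimidine motif), and TOR signaling and the RNA-binding protein Larp1 set their translation as a group. All living cells of the cochlea need these proteins, and growing or dividing cells make more of them, so that their messenger RNAs are usually among the most abundant of a tissue.

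The 17 libraries came from 17 male wild-type (WT) C57BL/6J mice, 8 weeks old, with the cochlear RNA of 1 mouse in each library. The control group (n = 3) received saline by intraperitoneal injection and no noise. The NE group (n = 7) was exposed for 2 h to noise of 8 to 16 kHz at 100 dB SPL, named broadband in the sample labels and octave-band in the methods, and whether these mice were injected with vehicle is not given in the sources used here. The brimonidine group (n = 7) had the same exposure and 1 mg/kg of brimonidine, an agonist of α2-adrenergic receptors, by intraperitoneal injection on the day before, the day of and the day after exposure. Cochleae were taken on the second day after exposure. No group received brimonidine without noise, and the comparisons of the NE and brimonidine groups with the control group share the same 3 control libraries.

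Levels are given as FPKM, the fragments of a gene scaled to the length of its exons and to the fragments counted in the library. The totals used in that scaling were worked out from the FPKM values. They were between 14457733 and 16080796 fragments in the control group, between 15769236 and 18288854 in the NE group and between 16624437 and 18224926 in the brimonidine group. The fragments recovered over all genes were somewhat above the total in each library, with 14747229 against 14457733 in control 1. Control 2 stood apart from the rest, with a median correlation across genes of 0.831 with the other libraries, against 0.947 to 0.981 for the other 16. The labels name interstitial cells as the cell type, but markers of many cell types were present. The summed level of 10 neutrophil markers was 9405 FPKM in control 2 and between 38663 and 63400 in the other libraries, with none of the 10 at 0. The 10 hair cell markers summed to between 15.0 and 36.6 FPKM, and Atoh1 was listed at 0 in control 1 and brimonidine 4. The 10 cerebellar markers summed to between 223 and 589 FPKM in the control group, to between 19.2 and 28.9 in the NE group and to between 19.6 and 81.4 in the brimonidine group.

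The sequences around the annotated starts show how the TOP feature looks in members of this family. Each line gives 30 bases of GRCm38.p6 from RefSeq on the strand of the transcript, 10 bases before the annotated start and then 20 from the start onward. Capitals mark the unbroken run of C and T that covers the start base. The genes were picked to set long runs beside a start with no run, and Rplp1, Rpl8 and Rpl23a have no entry in that table.
Rps6 (chr4:86857348-86857377, minus strand): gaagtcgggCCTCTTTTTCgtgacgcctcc
Rpl15 (chr14:18270967-18270996, minus strand): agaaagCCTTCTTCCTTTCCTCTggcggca
Rpl14 (chr9:120571507-120571536, plus strand): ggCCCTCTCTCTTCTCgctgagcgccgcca
Rpl35 (chr2:39005112-39005141, minus strand): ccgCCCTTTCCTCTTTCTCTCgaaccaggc
Rplp2 (chr7:141447641-141447670, plus strand): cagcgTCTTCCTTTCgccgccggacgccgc
Rps21 (chr2:180257369-180257398, plus strand): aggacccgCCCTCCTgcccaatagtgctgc
Rps27 (chr3:90213629-90213658, minus strand): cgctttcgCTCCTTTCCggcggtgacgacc
Rps27rt (chr9:114982720-114982749, minus strand): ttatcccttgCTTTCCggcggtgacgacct
Rps3a1 (chr3:86142649-86142678, minus strand): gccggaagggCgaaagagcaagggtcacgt
Rplp0 (chr5:115559457-115559486, plus strand): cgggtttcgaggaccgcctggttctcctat
Rps27l (chr9:66946076-66946105, plus strand): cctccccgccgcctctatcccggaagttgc

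An annotated start at a C that was followed by at least 4 further pyrimidines was found in 13 of the 57 core genes with an entry (22.8%) and in 813 of 27025 genes overall (3.01%). A run of 8 pyrimidines, searched on the transcript strand within 50 bases on either side of the start, was found in 48 of the 57 core genes (84.2%) and in 10614 of all genes (39.3%). The last 3 lines above hold at most 1 pyrimidine in the run over the annotated start, although Rplp0 and Rps3a1 were among the 4 members with the highest mean FPKM. The run of the retrogene Rps27rt was shorter than that of Rps27, and the paralog Rps27l had none at the start shown. These counts describe annotated starts, which may lie some bases away from the start used in the cochlea.

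Ribosomal protein genes were abundant in all 17 libraries. The members together held 3.80%, 2.99% and 3.80% of all FPKM in controls 1, 2 and 3, between 3.50% and 5.01% (median 3.92%) in the NE group and between 3.13% and 4.74% (median 3.91%) in the brimonidine group. Control 2 was the lowest library and NE 6 the highest. The share also depends on the highest gene of a library. Gm23935 held 13.4%, 14.4% and 9.46% of all FPKM in controls 1, 2 and 3 and 14.7% in brimonidine 7. Where S100a9 was the highest gene, it held 4.55% to 7.45%. The share of the members without these genes was not computed. In bulk tissue, fewer cells that make much of these messenger RNAs and less of them per cell cannot be told apart. By count of fragments, not divided by length, the members held between 1.76% and 3.42% of the totals used in the scaling.

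The level of single members covered a wide range. Of the 77 core genes, 53 had a mean over the 17 libraries of at least 100 FPKM, 20 lay between 10 and 100 and 4 lay below 10, with a median of 142 FPKM. The median was 784 FPKM for the 3 P stalk genes, 164 for the small subunit and 136 for the large subunit, and it was 5.11 for the paralogs and 3.61 for the annotated copies. The 10 most abundant members held 37.2% of the summed FPKM of the family. Among the 1142 genes whose mean reached 45.6 FPKM, the 10th percentile of the core genes, the median SD of log2(FPKM + 1) over the 17 libraries was 0.236, close to the 0.224 of the core genes.

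The highest means belonged to Rplp1 (868 FPKM), Rplp0 (784), Rps3a1 (772) and Rpl8 (709). Rplp0 and Rplp1 are parts of the P stalk, the arm of the large subunit that recruits translation factors, Rps3a1 is a small subunit protein, and Rpl8 lies close to the catalytic center of the large subunit. Rplp2, the partner of Rplp1 in the stalk, had a mean of 114 FPKM. The ratio of the stalk genes is a ratio of messenger RNA levels per length and not of the proteins.

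At the other end, 4 core genes had means below 10 FPKM, Rpl35 at 8.83, Rpl23a at 5.19, Rpl13a at 2.86 and Rpl24 at 0.456. Rpl35 and Rpl23a sit at the exit of the tunnel for the nascent chain, Rpl13a is also known as a silencer of inflammatory messenger RNAs, and Rpl24 takes part in a bridge between the subunits. Fragments can be shared with near-identical copies and with overlapping genes. Of the 100-base windows of its messenger RNA, 80.0% in Rpl23a, 75.8% in Rpl24, 30.7% in Rpl35 and 1.05% in Rpl13a were also present in transcripts of other genes, and 47.0% of the exon bases of Rpl24 and 35.4% of those of Rpl13a overlapped another gene on the same strand. Their part in the low values was not tested. Over all 77 core genes the median share of such windows was 31.8%, with more than 50% in 24 genes and none in 5.

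**Figure D1:**
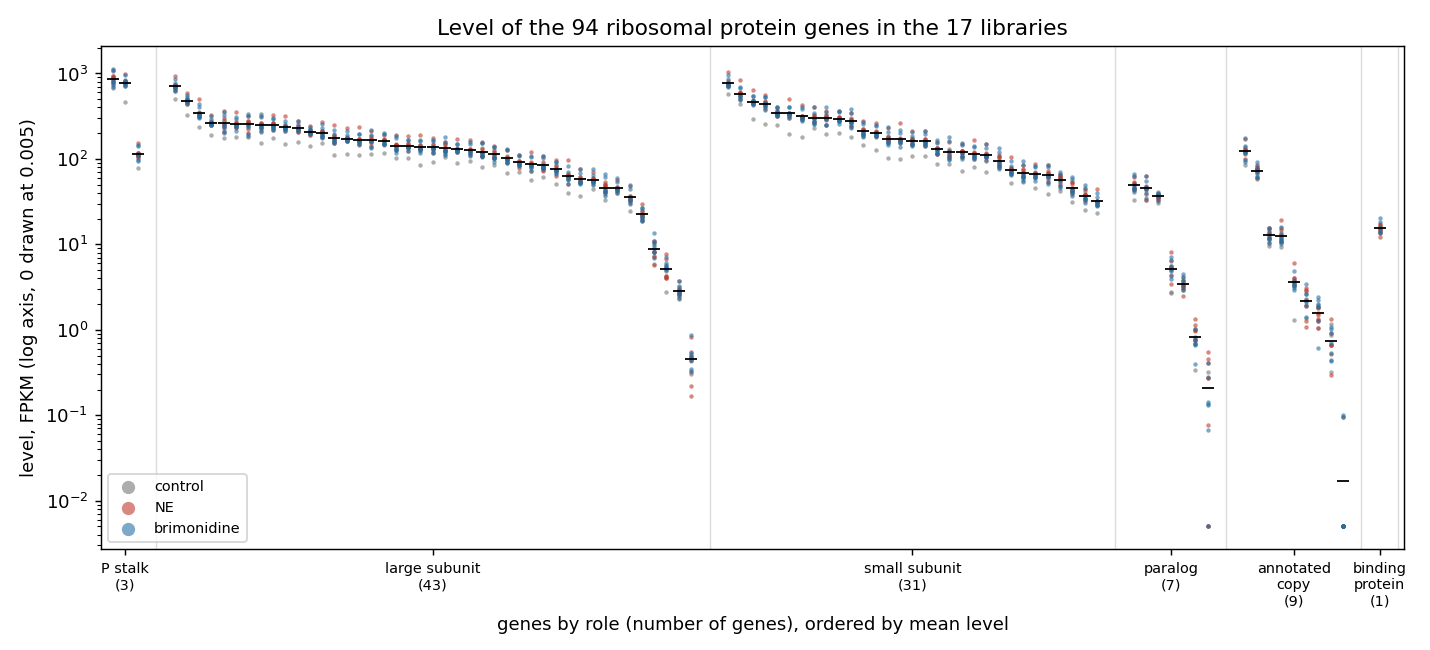
Level of each of the 94 genes in FPKM on a log axis, ordered by mean within its role, with 1 point per library colored by group and a black bar for the mean over the 17 libraries. The large subunit reached from 0.456 to 709 FPKM and the small subunit from 31.9 to 772, and control 2 formed the low grey points under most genes.

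The core genes moved together from library to library. For each library, the log2(FPKM + 1) of 76 core genes (all but Rpl24, whose level was too low to be tested) was set against the median of the other 16 libraries. Control 2 lay below that median for 76 of 76 genes, with a median deviation of -0.52, which is 0.695-fold, and it was the lowest of all 17 libraries for 72 of them. Brimonidine 3, brimonidine 2 and NE 6 lay above it for 76 of 76 genes, with median deviations of 0.29, 0.35 and 0.41.

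Of the remaining 13 libraries, NE 3 (-0.15) and brimonidine 7 (-0.19) were lowest and the others lay between -0.10 and 0.08. Controls 1 and 3, at 0.06 and 0.04, were in the middle of the exposed libraries. The deviations were similar in both subunits, with median deviations in control 2 of -0.51 for the large subunit, -0.55 for the small subunit and -0.51 for the P stalk, and in NE 6 of 0.41, 0.42 and 0.37. Over all genes tested, the median deviation was 0.11 in control 2 and -0.08 in NE 6.

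Once the library's median over the core genes was subtracted, the median SD of a core gene over the 17 libraries went from 0.224 to 0.0745, 3.00-fold lower. Within the NE group it went from 0.180 to 0.0643, and within the brimonidine group from 0.207 to 0.0643. Relative to the rest of the family, Rpl35 (0.241), Rpl23a (0.204), Rps29 (0.178) and Rpl13a (0.168) had the largest SD over the 14 exposed libraries. The 3 of them in the large subunit were the low-level genes described above, with 36 to 302 fragments in a library, while 64 of the 76 genes had at least 1000 fragments in every library.

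The 3 highest libraries and the lowest one came in the same order for the summed level of the neutrophil markers, genes of the granules and cytosol of neutrophils and their precursors. The summed level of these 10 markers was 63400 FPKM in NE 6, 55972 in brimonidine 2, 49448 in brimonidine 3, between 38663 and 44985 in 13 libraries and 9405 in control 2. The mean log2(FPKM + 1) of the core genes was 7.44, 7.40 and 7.34 in the first 3 libraries, between 6.87 and 7.15 in the 13, and 6.55 in control 2. Within the 13 the orders did not match, as NE 2 ranked 4 for the family and 16 for the markers, and NE 3 ranked 15 and 5. S100a9 alone gave 30213, 27116 and 21655 FPKM of the sums in NE 6, brimonidine 2 and brimonidine 3. By the median deviation of the 10 markers, brimonidine 3 (0.29) was above brimonidine 2 (0.23), the reverse of their order for the family. The 10 markers of proliferating cells were also lowest in control 2, at 224 FPKM in sum against 351 to 502 elsewhere. So were those of B and plasma cells, at 277 against 604 to 1407. Markers of hair cells, supporting cells, stria vascularis, spiral ganglion neurons, cerebellar neurons, osteoblasts and erythroid cells had their highest sums in control 2. Erythroid markers, for example, had 10886 FPKM there against at most 6073 elsewhere. The part of any of these cells in the level of the family was not tested.

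**Figure D2:**
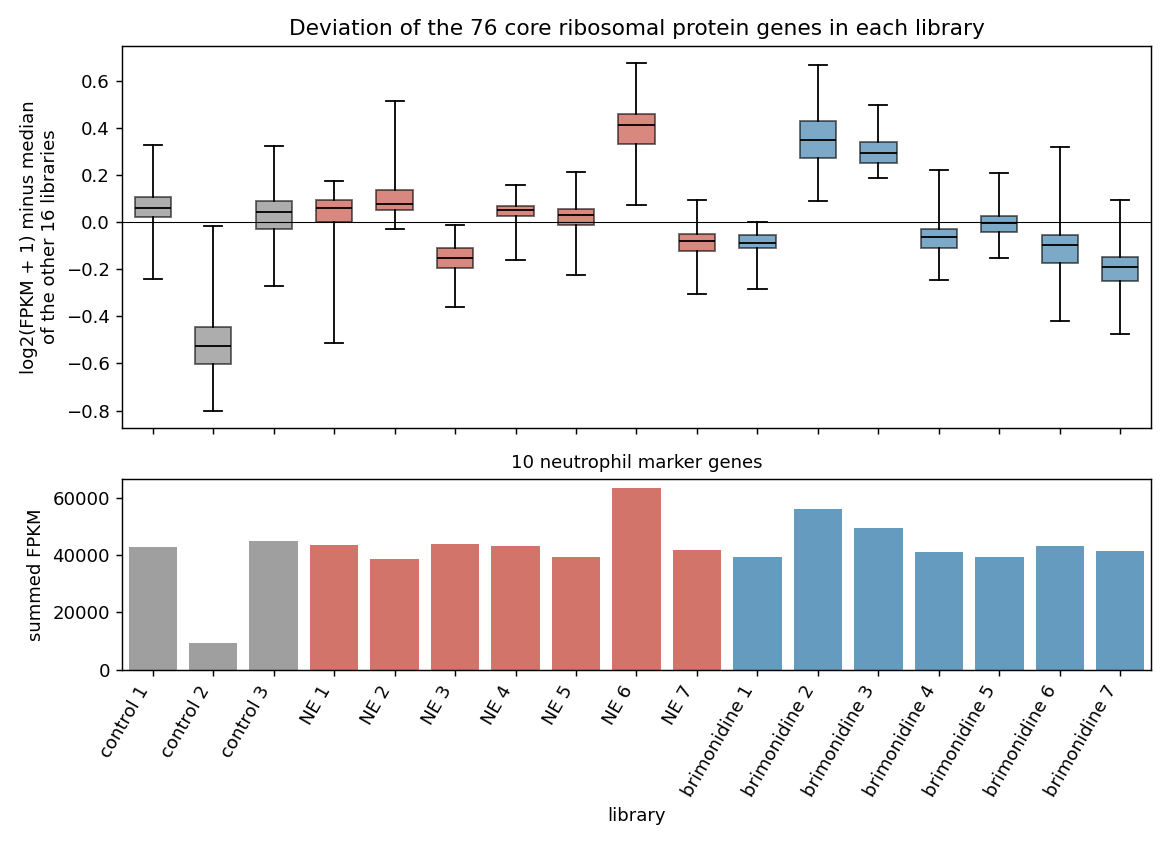
Upper plot, deviation of the 76 core genes in each library from the median of the other 16 on the log2 scale, with boxes for the quartiles and whiskers to the extremes; lower plot, summed FPKM of 10 neutrophil markers. Control 2 was lowest in both, at a median of -0.52 and a sum of 9405 FPKM, and NE 6 was highest in both, at 0.41 and 63400 FPKM.

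Noise exposure was addressed by comparing the NE group with the control group. Of the 90 members tested, 0 passed an adjusted p under 0.05 in limma, while 2.12% of all 15950 genes tested were called higher and 12.0% lower in the NE group. At an unadjusted p under 0.05 the count was 1 of 90 (Rpl7a-ps3), against 32.9% of all genes, and a voom fit of the recovered fragments called 0 members. None reached a log2 fold change of 1 in size together with that adjusted p (5.76% of all genes). In 0 members were all NE libraries above or all below the controls (3.24% and 15.0% of all genes). The log2 fold change was above 0 for 85 of 90 members, against 43.9% of all genes, and its median was 0.19, against -0.04 over all genes. It was similar in the large subunit (0.19 over 42 genes) and the small subunit (0.20 over 31).

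That shift depended on control 2 and on the processing. With all libraries kept, the median was -0.034 under quantile normalization and -0.024 with array weights. Without control 2, the median was 0.01 for the members and -0.01 for all genes, 54 of 90 members were above 0 (47.1% of all genes), and 0 were called by limma (6.74% of all genes). Without control 1 it was 0.28, and 1 of 89 members was called, against 24.3% of all genes. The 95% intervals of the 90 members lay between -0.38 and 0.99, and 31 of them stayed within 0.5 of 0 on both sides, while the intervals of the other members reached past a log2 fold change of 0.5. Relative to the family, after each library was scaled by its median ratio over the core genes, 0 members were called by limma (6.76% of all genes), and the median of the members was 0.01, while that of all genes was -0.20. The scaling takes out any shift that the core genes share, so a member median near 0 was set in advance. For the same reason the member count cannot be compared with the share of all genes.

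Rplp0, a gene often used as a reference in qPCR, had 789, 464 and 716 FPKM in controls 1, 2 and 3. In the NE group its lowest value was 739.7, its median 808 and its highest 986. Control 2 was far below the rest and NE 6 above it. Control 1 lay within the NE range and control 3 just under it. The means were 656 ± 171 (SD, n = 3) and 816 ± 80.3 FPKM (SD, n = 7), with a log2 fold change of 0.34 (SE 0.195, limma adjusted p = 0.239; exact two-sided permutation test, p = 0.0333). Without control 2 the log2 fold change was 0.11 (limma adjusted p = 0.696). Its limma adjusted p lay between 0.105 and 0.774 in the other settings tried.

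Rplp1 had 926, 685 and 892 FPKM in the 3 controls and 745 to 1086 in the NE group (median 877), with a log2 fold change of 0.09 (SE 0.183, limma adjusted p = 0.770). Rplp2 had 118, 78.1 and 105 FPKM in the controls and 103 to 154 in the NE group (median 112), with a log2 fold change of 0.24 (limma adjusted p = 0.283). In all 3 stalk genes control 2 was below all NE libraries, control 1 lay within their range, and NE 6 was the highest NE library.

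Rps6, the substrate of the S6 kinases downstream of TOR, had 473, 294 and 441 FPKM in the controls and 434 to 645 in the NE group (median 465). Controls 1 and 3 lay inside the NE range. Its log2 fold change was 0.29 (SE 0.185, limma adjusted p = 0.286) and 0.08 without control 2. Rps27a, which encodes ubiquitin fused to a small subunit protein, had 179, 102 and 187 FPKM in the controls and 158 to 228 in the NE group (median 169), with a log2 fold change of 0.23 (limma adjusted p = 0.418) that was -0.05 without control 2.

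Rps3a1 had 769.6, 569 and 774 FPKM in the controls and 705 to 1046 in the NE group, and Rpl8 had 727, 499 and 631 against 647 to 944. Rpl12, which forms the base of the stalk, had a log2 fold change of 0.29 (limma adjusted p = 0.247), and the large subunit gene Rpl29 one of 0.31 (limma adjusted p = 0.258).

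Rps21, a small subunit protein needed for the maturation of the small subunit RNA, had the lowest log2 fold change of the 76 core genes. It had 104, 76.9 and 112 FPKM in the controls and 81.9 to 108 in the NE group (median 86.7), a log2 fold change of -0.08 (SE 0.134, limma adjusted p = 0.697). With array weights, where libraries with a wide spread count less, limma called it lower (adjusted p = 0.00905), and the other settings gave values of up to 0.924. Array weights called 1 member lower (23.1% of all genes) and 2 higher (14.3%), out of 37.4% of all genes called in either direction. Its level relative to the median core gene was between -0.49 and -0.40 on the log2 scale in the controls, and in the NE group it lay between -0.81 and -0.61, so that these did not overlap. In the brimonidine group it lay between -0.71 and -0.43 and overlapped the controls. After scaling by the median ratio over the core genes, 1 of 89 members was lower without overlap, Rps21, against 11.6% of all genes, and 1 was higher, Rpl23, against 0.815%. Relative to the median core gene Rpl23 overlapped, with 0.13 to 0.19 in the controls and 0.14 to 0.33 in the NE group on the log2 scale.

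**Figure D3:**
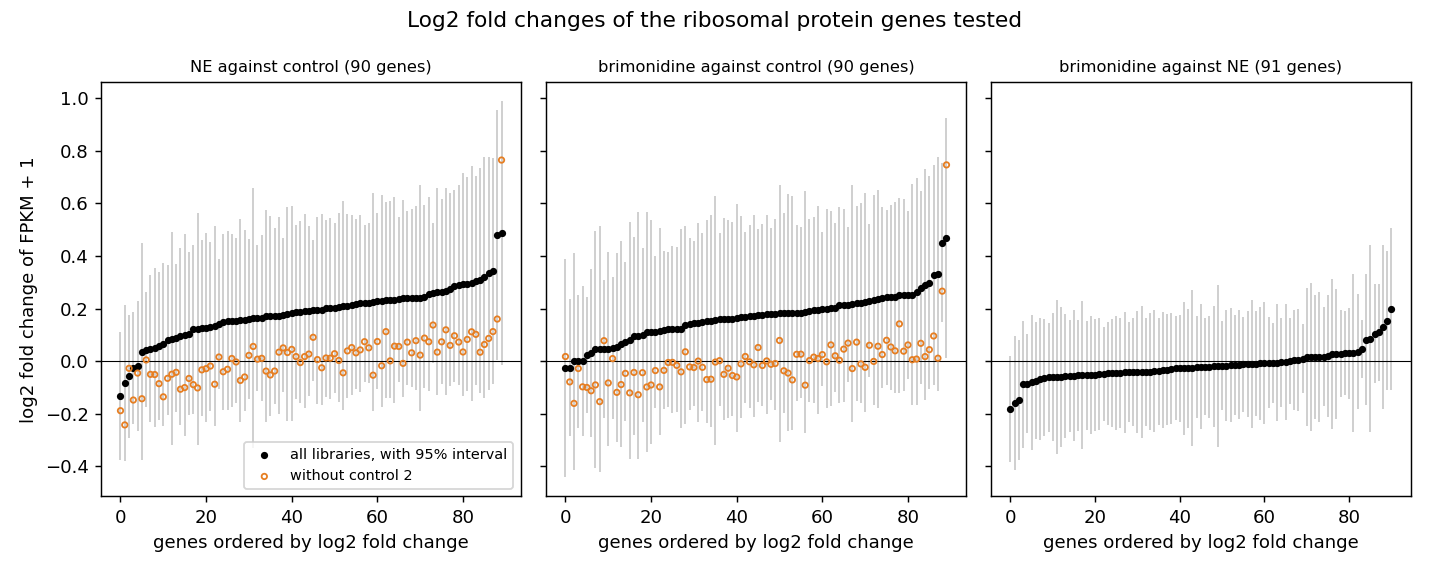
Log2 fold change of each tested member, ordered by size, in the 3 comparisons, with 95% limma intervals in grey and, in the comparisons with control, the value without control 2 as open circles. With all libraries most points lay above 0 (85 of 90 for NE, 87 of 90 for brimonidine), and without control 2 they lay about 0 (54 and 40 of 90 above 0).

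The brimonidine group, which had both noise and drug, was also compared with the control group. Of the 90 members tested, 1 rose, Rpl23a, and 0 fell, while 3.47% of all 15947 genes were called higher and 12.3% lower (limma, adjusted p under 0.05). At an unadjusted p under 0.05 the count was 2 of 90 (Rpl23a and Rpl3l), against 35.6% of all genes, none reached a log2 fold change of 1 in size together with the adjusted p (5.73%), and voom on the recovered fragments called 0 members. The log2 fold change was above 0 for 87 of 90 members (45.8% of all genes), with a median of 0.17, against -0.03 over all genes. With array weights and all libraries kept, the median of the members was -0.05. Without control 2 it was -0.00 for the members and for all genes, 40 of 90 were above 0 (49.2% of all genes), and Rpl3l was called in place of Rpl23a, 1 of 90 members against 9.48% of all genes. The 95% intervals lay between -0.44 and 0.92, and 27 of 90 stayed within 0.5 of 0.

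Rpl23a, part of the site at the tunnel exit where the signal recognition particle docks, had 4.25, 2.80 and 4.92 FPKM in controls 1, 2 and 3. In the brimonidine group the lowest value was 5.02, the median 5.57 and the highest 7.17. All 7 brimonidine libraries were above all 3 controls, and it was the 1 of 90 members without overlap, against 5.07% of all genes higher and 14.3% lower. The means were 5.73 ± 0.728 (SD, n = 7) and 3.99 ± 1.08 FPKM (SD, n = 3), with a log2 fold change of 0.45 (SE 0.137, limma adjusted p = 0.0485; exact two-sided permutation test, p = 0.0083, the smallest possible). In the NE group it had 4.02 to 7.67 FPKM (median 4.31), which gave a log2 fold change from control of 0.30 (limma adjusted p = 0.324).

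The call of Rpl23a was close to its limit. Without control 2 the log2 fold change was 0.27 (limma adjusted p = 0.168), without any 1 of the 7 brimonidine libraries it also lost the call, and the limma adjusted p lay between 0.0269 and 0.413 over all settings tried. It rested on 36 to 115 fragments in a library. As given above, most windows of its messenger RNA occur in other transcripts.

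The highest members showed the same library pattern as in the NE group. Rplp0 had 721 to 963 FPKM in the brimonidine group (median 787, mean 806 ± 77.1, SD, n = 7), with a log2 fold change of 0.33 (SE 0.189, limma adjusted p = 0.233; exact two-sided permutation test, p = 0.0583), or 0.10 without control 2. Rplp1 had 703 to 1134 FPKM (median 803), and its log2 fold change was 0.05. Rps6 had 428 to 543 FPKM (median 473), with a log2 fold change of 0.28 (limma adjusted p = 0.248). The large subunit genes Rpl6 and Rpl3, the latter placed beside the catalytic center, had log2 fold changes of 0.25 and 0.23 (limma adjusted p = 0.230 and 0.231).

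After scaling by the median ratio over the core genes, 0 members were called against control by limma (7.09% of all genes). As the scaling takes out what the core genes share, that count cannot be compared with the share of all genes. Rpl12 and Rpl23a were then higher without overlap (2 of 90 members, 0.808% of all genes) and Rpl37a and Rpl9-ps6 lower (2 of 90, 10.7% of all genes). The level of Rpl12 relative to the median core gene was between -0.85 and -0.80 on the log2 scale in the controls and between -0.79 and -0.67 in the brimonidine group. That of Rpl37a, a zinc-binding large subunit protein, was between -0.31 and -0.27 and between -0.45 and -0.29, which overlapped, so that its separation rested on the way of scaling.

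**Figure D4:**
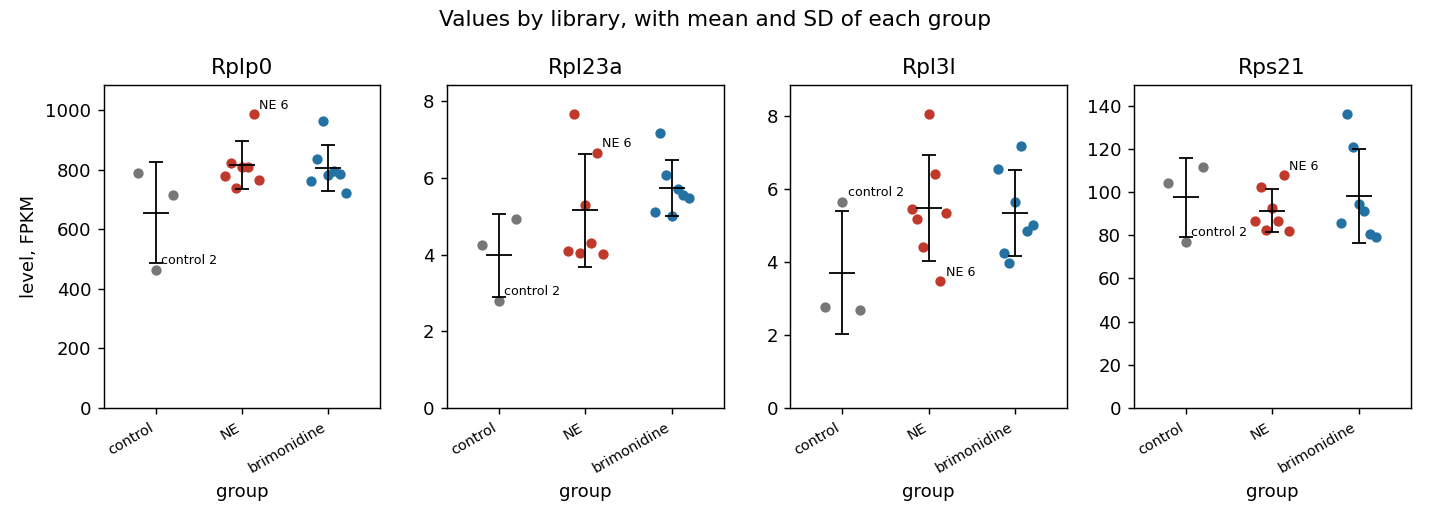
FPKM of Rplp0, Rpl23a, Rpl3l and Rps21 in each library by group, on axes that start at 0, with black lines for the mean and SD of the group. Control 2 had the lowest control value of Rplp0, Rpl23a and Rps21 and the highest of Rpl3l, and the 7 brimonidine libraries lay above the 3 controls for Rpl23a alone of these 4.

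Between the brimonidine and NE groups, the members were close to each other. These groups differed by the drug and possibly by its injections, as vehicle for the NE mice is not given. Of 91 members tested, 0 were called by limma and 0 by voom, and 0 passed an unadjusted p under 0.05, where the shares over all 15707 genes were 0.00637% and 5.77% in limma. In 0 members were the groups apart (0.102% of all genes higher, 0.0382% lower). The median log2 fold change was -0.02, against 0.01 over all genes, and 25 of 91 were above 0, against 57.7% of all genes. The 95% intervals lay between -0.41 and 0.51, and 90 of 91 stayed within 0.5 of 0, with Rpl35 the exception. After scaling by the median ratio over the core genes, 0 members were called by limma (0.0% of all genes) and 0 were without overlap (0.00632% of all genes higher, 0.0189% lower).

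Rpl35 had 5.69 to 11.0 FPKM in the NE group (median 8.14) and 6.85 to 13.6 in the brimonidine group (median 9.74). The groups overlapped over most of their range, and the log2 fold change was 0.20 (SE 0.144, limma adjusted p = 0.901). The paralog Rpl36al had 0.758 to 1.34 FPKM (median 0.970) and 0.400 to 1.03 (median 0.703), a log2 fold change of -0.18 (SE 0.0941, limma adjusted p = 0.870; exact two-sided permutation test, p = 0.0542), on 7 to 32 fragments in a library. Among abundant members, the log2 fold change was -0.02 for Rplp0, -0.04 for Rplp1, -0.03 for Rps3a1, -0.05 for Rpl8 and -0.01 for Rps6. The small subunit genes Rps15 and Rps24 had values of -0.09 and -0.07.

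Some members varied within an exposed group more than the others did. Rps29, a small zinc-binding protein of the small subunit, reached 157 FPKM in NE 2, while the other NE libraries lay between 106 and 123, and in the brimonidine group it had 96.0 to 182. Rpl39, which lines the exit tunnel, had 37.0 to 66.4 FPKM in the brimonidine group. Both were highest in brimonidine 2 within that group.

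Paralogs made up a small part of most pairs. Rpl3l, which replaces Rpl3 in the ribosomes of skeletal and heart muscle, was 2.54% of the level of Rpl3 in the NE group and also in the brimonidine group (medians), and 1.29%, 3.98% and 1.41% in controls 1, 2 and 3. In FPKM, Rpl22l1 was between 5.61% and 9.14% of the level of Rpl22 over all libraries, and Rpl7l1 between 13.6% and 19.2% of that of Rpl7. The paralog ratios depend on the length used for each gene. With the length of the messenger RNA in place of all exons, the mean was 12.4 for Rpl22l1 and 65.4 for Rpl22. Their means in FPKM were 3.44 and 46.1. For Rpl7l1 and Rpl7 the means were 36.4 and 528, beside 36.4 and 229 FPKM. The first ratio was then higher and the second lower. Rpl36al stayed at or below 2.20% of Rpl36a. Rpl39l, known from the ribosomes of male germ cells, was at or below 1.21% of Rpl39 and was listed at 0 in control 1, control 3, NE 3 and brimonidine 2.

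Rps27l, a target of p53, had FPKM values on a scale similar to Rps27. It was 61.9% to 79.4% of the level of Rps27 over the 17 libraries, with a median of 71.4% for the control group, 71.4% for NE and 71.8% for brimonidine. With the length of the messenger RNA in place of all exons, the mean was 80.3 for Rps27l, 208 for Rps27 and 45.5 for Rps27rt. Their means in FPKM were 49.1, 68.7 and 45.5, so both ratios to Rps27 were lower with the messenger RNA length. None of the 100-base windows of Rps27l occurred in another transcript, in contrast to 98.4% of those of Rps27 and 89.5% of those of Rps27rt. Rps27rt was listed at 48.5% to 76.6% of Rps27. With so many shared windows the split of fragments between these 2 genes is uncertain, and so is the ratio of Rps27l to Rps27.

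Rpl3l was the member with the largest log2 fold change in both comparisons with control. It had 2.78, 5.65 and 2.69 FPKM in controls 1, 2 and 3, 3.47 to 8.05 in the NE group (median 5.35) and 3.97 to 7.19 in the brimonidine group (median 5.02). Controls 1 and 3 lay below all 14 exposed libraries, and control 2 lay among them. The log2 fold change was 0.49 for NE (SE 0.227, limma adjusted p = 0.163; exact two-sided permutation test, p = 0.117) and 0.47 for brimonidine (SE 0.206, limma adjusted p = 0.132; exact two-sided permutation test, p = 0.0667). Without control 2 it was 0.76 (limma adjusted p = 0.0603) and 0.75 (limma adjusted p = 0.0235). Over all settings tried the limma adjusted p lay between 0.00123 and 0.504 for NE and between 0.000486 and 0.581 for brimonidine.

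The skeletal muscle markers, such as Acta1 and Ckm, moved with Rpl3l. Their 10 genes summed to 310 and 358 FPKM in controls 1 and 3, to 813 in control 2, to between 482 and 1073 in the NE group and to between 372 and 944 in the brimonidine group, with none at 0. Of the 10 genes, 4 rose in the NE group, and 1 rose and 1 fell in the brimonidine group, with median log2 fold changes of 0.99 and 0.75, or 1.45 and 1.29 without control 2. Of all genes, 2.12% rose in the NE group, and 3.47% rose and 12.3% fell in the brimonidine group. The part of muscle tissue in the level of Rpl3l was not tested.

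The other paralogs gave no calls. Rpl22l1 had 4.14, 3.28 and 3.47 FPKM in the controls, 2.48 to 3.80 in the NE group and 2.93 to 4.45 in the brimonidine group. In NE against control its log2 fold change of -0.13 (limma adjusted p = 0.413) was the lowest of all members tested. Rpl7l1 had log2 fold changes of -0.02 and 0.02 against control, Rps27l of 0.22 and 0.20 and Rps27rt of 0.17 and 0.20. Rps19bp1 had 16.4, 16.1 and 13.8 FPKM in the controls, 12.2 to 17.1 in the NE group and 13.5 to 20.2 in the brimonidine group, and unlike the core genes it was not low in control 2.

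Among the 9 annotated copies, Rps12-ps3 had a mean of 124 FPKM and Rpl9-ps6 one of 73.2, and the other 7 lay below 13 FPKM. In Rps12-ps3, 100% of the windows occur in other transcripts, so that its level is uncertain. Rpl7a-ps3 had 3.57, 1.30 and 3.37 FPKM in the controls and 3.23 to 6.08 in the NE group (median 3.77), with a log2 fold change of 0.48 (SE 0.216, limma adjusted p = 0.149; exact two-sided permutation test, p = 0.0417) that was 0.16 without control 2. Its parent Rpl7a had a log2 fold change of 0.29 (limma adjusted p = 0.260). Over the 17 libraries Rpl23a-ps3 had 9.48 to 15.7 FPKM and Rps2-ps6 had 9.40 to 19.0, while Rpl27-ps3 (1.08 to 3.42), Rpl7a-ps5 (0.619 to 2.45) and Rpl10-ps3 (0.297 to 1.32, on 4 to 16 fragments) stayed low. Rpl9-ps1 was listed at 0 in 14 libraries and rested on 1 fragment in each of the other 3.

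A further 177 genes carried a ribosomal protein name under a pseudogene biotype and were outside the rule. They held 0.269% to 0.458% of all FPKM. The 55 of them that passed the filter followed the family, with median deviations of -0.45 in control 2, 0.33 in NE 6, 0.30 in brimonidine 2 and 0.24 in brimonidine 3.

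Other genes of the ribosome and of translation were described by lists. The 15 other known TOP messenger RNAs, such as Tpt1 and Npm1, had median deviations of -0.41 in control 2, 0.21 in NE 6, 0.18 in brimonidine 3 and -0.01 in brimonidine 2, where the core genes were at 0.35. Of these 15, 0 were called by limma in the NE group, beside 2.12% of all genes called higher and 12.0% lower. In the brimonidine group 2 rose, Eif4b and Eif3f, beside 3.47% of all genes, and 0 fell, beside 12.3%. The list's median log2 fold change was 0.20 in both, or 0.07 for NE and 0.10 for brimonidine without control 2. Eif3f lost its call in the brimonidine group without control 2 (limma adjusted p = 0.0870).

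The shared low value of control 2 was smaller in the 37 initiation factors (-0.25) and the 66 assembly factors (-0.23). It was near 0 in the 10 elongation factors (-0.09), the 20 regulators of TOP and TOR signaling (-0.10), the 19 genes of RNA polymerase I (0.04), the 22 chaperones and surveillance factors (0.03) and the 77 mitochondrial ribosomal proteins (0.01). Mitochondrial ribosomes are a separate particle, and their genes differed from the cytosolic family in control 2 while both were high in NE 6 (0.24 and 0.41).

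**Figure D5:**
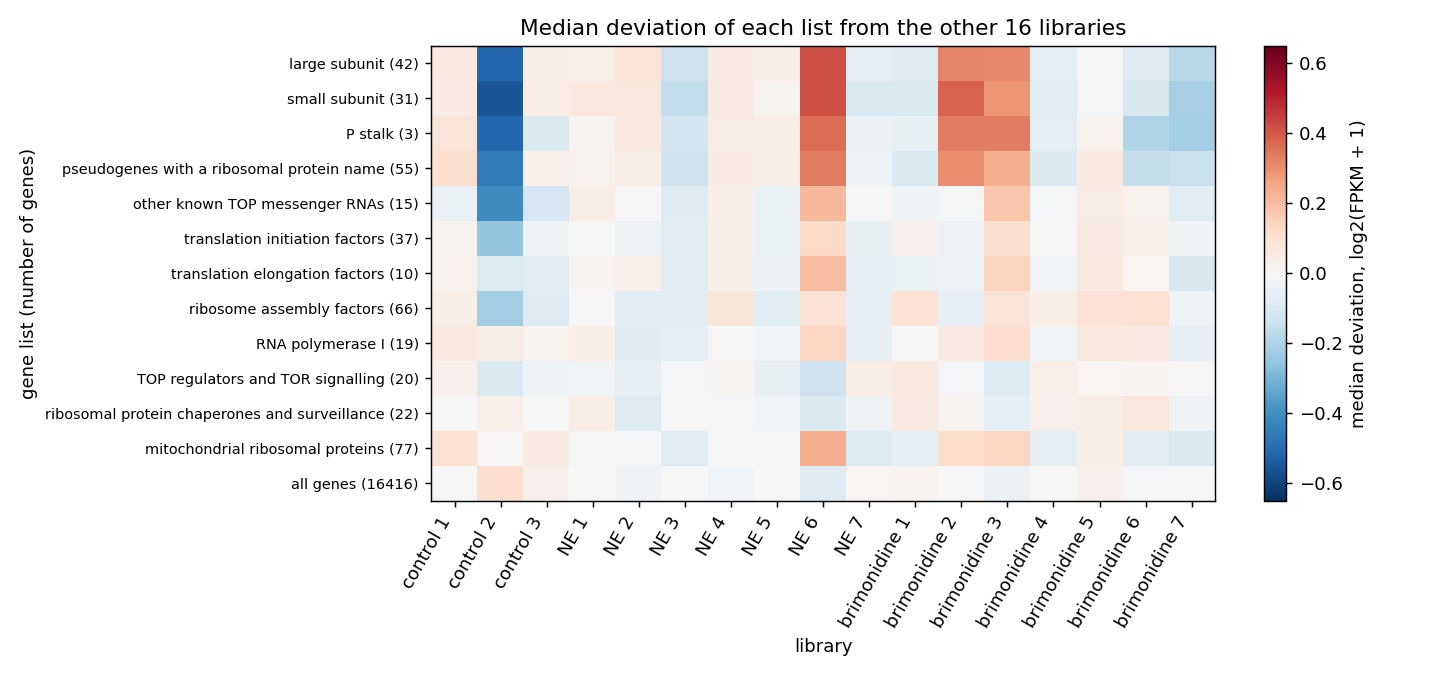
Median deviation of each gene list (log2 scale, color) in each library from the median of the other 16 libraries, with the number of genes in brackets. The lists of the large subunit, the small subunit and the P stalk were low in control 2 (-0.51 to -0.55) and high in NE 6 (0.37 to 0.42), and the mitochondrial ribosomal proteins were at 0.01 in control 2.

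Among initiation factors, 1 rose and 2 fell in the NE group, and 3 rose and 2 fell in the brimonidine group, of 37 tested. The shares over all genes were 2.12% higher and 12.0% lower for NE, and 3.47% higher and 12.3% lower for brimonidine. Eif3a, the scaffold of initiation factor eIF3, rose from 39.6 ± 4.32 FPKM (SD, n = 3) to 53.2 ± 7.36 in the NE group (SD, n = 7), a log2 fold change of 0.41 (limma adjusted p = 0.0469). Eif1ax and Eif1b, which help to select the start codon, fell by 0.36 and 0.39 on the log2 scale in the NE group (limma adjusted p = 0.0269 and 0.0337). In the brimonidine group Eif4b, a helper of the helicase eIF4A, rose by 0.31, Eif3f by 0.38 and Eif3a by 0.48, while Eif1ax and Eif1 fell. The medians of the list were 0.09 and 0.12, and -0.02 and 0.01 without control 2. Without that library Eif4b kept its call and the other called factors had adjusted p values from 0.0606 to 0.178 (limma).

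Among elongation factors, 1 of 10 fell in each comparison with control, beside 12.0% and 12.3% of all genes. This was Eef1a2, the form of neurons and muscle, which went from 108 ± 71.5 FPKM in the 3 controls to 28.0 ± 6.84 under NE and 25.9 ± 10.5 under brimonidine (means ± SD, the latter with n = 7 each). Its log2 fold changes were -1.77 and -1.92 (limma adjusted p = 0.00548 and 0.00610), and the list's medians were 0.06 and 0.04. Without control 2 they were -1.27 and -1.42 (limma adjusted p = 0.0129 and 0.0181), and over all settings tried the limma adjusted p lay between 0.000139 and 0.226 and between 0.000463 and 0.0936. The cerebellar marker sums given above were likewise higher in the controls, 10 of 10 of these markers fell in each comparison, and their part in the value of Eef1a2 was not tested.

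Of the 20 regulators tested, Myc, a transcription factor of growth and ribosome production, rose from 12.6 ± 3.98 FPKM (SD, n = 3) to 19.4 ± 1.87 in the NE group (SD, n = 7) and to 21.5 ± 1.55 in the brimonidine group (SD, n = 7). Its log2 fold changes were 0.62 and 0.76 (limma adjusted p = 0.0227 and 0.00564). The kinase gene Rps6ka5 fell by 0.31 on the log2 scale in the brimonidine group (limma adjusted p = 0.0421). The list's medians were 0.02 and 0.07. In all, 1 of 20 regulators rose in the NE group (2.12% of all genes), and 1 rose and 1 fell in the brimonidine group (3.47% and 12.3%). Without control 2 the log2 fold change of Myc was 0.42 in the NE group, where the call was lost (limma adjusted p = 0.0969), and 0.57 in the brimonidine group (limma adjusted p = 0.0125). Over all settings tried its limma adjusted p lay between 0.000589 and 0.366 and between 4.61e-05 and 0.128, and the call of Rps6ka5 was also lost without control 2 (limma adjusted p = 0.119).

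Of the 66 ribosome assembly factors, 0 rose and 1 fell in the NE group, and 6 rose and 1 fell in the brimonidine group, beside 2.12% of all genes higher and 12.0% lower for NE and 3.47% and 12.3% for brimonidine. The 6 were Ddx21, Ncl, Wdr43, Mphosph10, Rrs1 and Nop2, all nucleolar proteins, with log2 fold changes from 0.32 (Nop2) to 0.57 (Ncl). The nucleolar GTPase gene Gnl3l fell by 0.66 on the log2 scale in the NE group and by 0.56 in the brimonidine group. The list's medians were 0.06 and 0.13, or -0.00 and 0.07 without control 2, and no factor was called between the brimonidine and NE groups, where the median was 0.05. Without control 2 the call of Gnl3l in the NE group was kept, and the 7 calls in the brimonidine group were lost, with adjusted p values from 0.0628 to 0.159 (limma).

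In the next 3 lists the counts stand beside 12.0% of all genes called lower for NE and 12.3% for brimonidine. Of the 19 genes of RNA polymerase I, 0 rose and 2 fell in the NE group, Rrn3, which starts transcription of ribosomal RNA, and Polr1c (log2 fold changes -0.35 and -0.28), and 0 were called in the brimonidine group. Of the 22 chaperones and surveillance factors, Nacad, a nascent chain factor, fell in each, from 4.37 ± 3.03 FPKM (SD, n = 3) to 1.48 ± 0.526 under NE and 1.49 ± 0.306 under brimonidine (SD, n = 7 each). Of the 77 mitochondrial ribosomal proteins, Mrpl49 and Mrpl50 fell in the NE group and Mrpl38 in the brimonidine group, and the list's medians were -0.04 and -0.05. Between the brimonidine and NE groups 0 genes of any of these lists were called. Without control 2 the call of Nacad in the brimonidine group was kept, and the others were lost, with adjusted p values from 0.0649 to 0.128 (limma).

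The markers of other cell types were counted in the same fits. Neutrophil markers had median log2 fold changes of 0.73 and 0.75 against control with 0 of 10 called, or 0.08 and 0.14 without control 2, a pattern like that of the ribosomal protein genes. Of the 10 markers of proliferating cells, 3 rose in each comparison with control, beside 2.12% of all genes for NE and 3.47% for brimonidine (medians 0.53 and 0.57, or 0.21 and 0.23 without control 2). Of the 10 markers of spiral ganglion neurons, 4 fell under NE and 6 under brimonidine, beside 12.0% and 12.3% of all genes (medians -0.79 and -1.03, or -0.38 and -0.62 without control 2). Of the supporting cell markers 1 and 2 of 8 fell, with medians of -0.32 and -0.34 that were 0.09 and 0.14 without control 2. Of the markers of the stria vascularis 1 and 1 of 10 fell, shares close to those of all genes, with medians of -0.30 and -0.21 that were 0.08 and 0.13 without control 2. In hair cells, osteoblasts, erythroid cells and B and plasma cells 0 were called. Between the brimonidine and NE groups 0 markers of any list were called.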

How the data were processed

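Total RNA of the cochlea was extracted with TRIzol, and poly(A) libraries (TruSeq Stranded mRNA) were sequenced on an Illumina NovaSeq instrument. The submitters' processing notes name Trimmomatic, HISAT2, Cufflinks and HTSeq and the build mm10. The values deposited by the authors were FPKM per gene, with no counts used here. The number of fragments behind each value was recovered from the FPKM with exon lengths of GENCODE M21, which gave whole numbers (tolerance 0.02) in 32423 of 35029 genes and for 76 of the 94 members. For the other 18 members the length was solved from the values.

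A gene was tested, on log2(FPKM + 1), where at least 3 of the compared libraries had 1 FPKM or more, with limma 3.58.1 (R 4.3.3, trended empirical Bayes, 2-group models). The added 1 FPKM understates the fold changes of low genes. P values were adjusted over all genes tested by Benjamini-Hochberg, and a gene was called at an adjusted p under 0.05. Intervals of 95% come from the moderated t distribution. Single genes were also tested by exact two-sided permutation, for which the smallest p is 0.0083 for 7 against 3 and 0.00058 for 7 against 7 libraries. Each library is 1 mouse. Exon sharing was counted with 100-base windows on the M21 transcripts, and 5 members without a protein-coding transcript there were left out of that count. Start sequences came from the RefSeq table of GRCm38.p6, in which 65 members had an entry. Python 3.11.15, numpy 2.4.6, pandas 2.3.3 and matplotlib 3.10.9 were used, and the fits were tested on simulated data.

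The members, gene lists and tests were chosen with earlier results of these data known. Named members were the 4 with the highest and the 4 with the lowest mean among those tested in all comparisons, for each comparison and direction the 6 with the smallest p, the paralogs and copies with their parent genes, the 3 with the largest SD within each exposed group, the P stalk and Rps27a, and, of each gene list, up to 4 genes by p in NE against control. Rpl14, Rpl15, Rpl23, Rpl24, Rpl37a and the further list genes called in the brimonidine group were named after their values were seen. Alternatives were another pseudocount, no filter, 3 scalings, 1 model of all 17 libraries, array weights, robust moderation, a replicate block and leaving out each library. Added after seeing the data were scaling to the core genes, with and without control 2, and voom on the recovered fragments. Results of a few genes are not reported here.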

Additional observations from a re-analysis of the deposited data

Results flagged for a closer look

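Each of 96 sets of values (47 named members and the share of the family, in the NE and in the brimonidine group) was checked for a highest or lowest library far from the other 6, by Dixon's test with a critical value of 0.568 for 7 samples, and 21 sets had one. Chance gives about 1 in 20 groups. All 21 were in the NE group, all came from the same 7 mice, and the members of the family moved together, so that these are not separate findings.

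In 19 of the 21 the library was NE 6, on the high side. Of the P stalk, Rplp0 had 986 FPKM and Rplp2 had 154 FPKM there. Of the large subunit, Rpl6 had 233, Rpl7a 318, Rpl8 944, Rpl10 322, Rpl12 121, Rpl22 56.6, Rpl27 193, Rpl29 251 and Rpl36a 97.8 FPKM. Of the small subunit, Rps3a1 had 1046, Rps6 645, Rps12 265, Rps15 838, Rps24 106 and Rps27a 228 FPKM. The copy Rpl7a-ps3 had 6.08 FPKM, and the members together held 5.01% of all FPKM. NE 6 also had the highest summed level of neutrophil markers, 63400 FPKM, and the part of these cells in the values was not tested.

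Rps29 was high in NE 2, with 157 FPKM against 106 to 123 in the other NE libraries. Rpl9-ps1 was above 0 in the NE group in NE 4 alone, with 0.0949 FPKM, which is 1 fragment.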

How the results depend on the processing

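Between brimonidine and NE, 0 members were called under all 25 alternatives, and the median log2 fold change stayed between -0.07 and 0.04 (-0.07 to 0.03 with 1 library left out). For NE against control, 0 members were called except under quantile normalization (1, Rpl3l), array weights (3, among them Rpl3l and Rps21) and without control 1 (1), a range of 0 to 1 with 1 library left out. The median of 0.19 was -0.034 under quantile normalization and -0.024 with array weights, and 0.01 (without control 2) to 0.28 (without control 1) with 1 library left out. For brimonidine against control, the count of 1 was 0 without the filter, in 1 model of all 17 libraries, with robust moderation, when scaled to the core genes with or without control 2, and in voom, and 2 under quantile normalization (Rpl23a and Rpl3l), which called 15.4% of all genes for NE and 19.0% for brimonidine. With 1 library left out it was 0 to 1, at 0 without each of the 7 brimonidine libraries, and the median was -0.00 to 0.28. With array weights, which called 43.4% of all genes, the 1 call was Rpl3l and the median -0.05. The cause of these changes was not tested. Over the named members, 2698 values kept their direction and side of the threshold, 320 changed sign with no call in either setting, 8 gained and 16 lost a call, and 0 called values reversed.

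The replicate numbers did not pair the mice, as deviations from the group means of same-numbered libraries correlated at -0.22 to 0.08. With the replicate number as a block, 0 members were called in each of the 3 comparisons, where limma called 0.0% of all genes for NE, 1.48% for brimonidine and 0.0% between them, with medians of 0.14 for NE, 0.32 for brimonidine and -0.02 between them. Depth limits Rpl9-ps1, Rpl39l, Rpl10-ps3 and Rpl24 most, with at most 16 fragments in a library, and 3 control libraries, with 1 of them apart, limit each comparison with control.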
